A study of Mus musculus with 22 samples.

Results

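Dio1, Serpina7, Ttr, Slc16a10, Thrsp, Gpd2 and Klf9 are 7 genes that act in thyroid hormone transport, activation and response, and they were followed in mouse liver with and without a pituitary. They were chosen by name, with earlier results of these data known, and found through the RefSeq accessions of the array probes. They are 7 of the 33767 gene names on the array, and all 7 were bright enough to be tested among 26191 genes. Klf9 and Slc16a10 have 2 probes each and the others 1 each, so 9 probes were read. The brighter probe stands for the gene, and the dimmer one is given where it bears on a result.

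The thyroid gland secretes mainly thyroxine, a prohormone, under the control of thyrotropin from the pituitary. In the liver, the type 1 deiodinase encoded by Dio1 removes an iodine from thyroxine to give triiodothyronine, which binds nuclear receptors on target genes, Dio1 itself among them. Hepatocytes also make the plasma proteins that carry the hormone, among them thyroxine-binding globulin (Serpina7) and transthyretin (Ttr). Slc16a10 encodes MCT10, a membrane transporter of aromatic amino acids and thyroid hormones. Thrsp (Spot14, a regulator of fat synthesis), Gpd2 (mitochondrial glycerol-3-phosphate dehydrogenase) and Klf9 (a zinc finger transcription factor) are genes known to respond to triiodothyronine. Removal of the pituitary takes away thyrotropin, corticotropin, gonadotropins and prolactin as well as growth hormone (GH), and GH was the hormone given back here.

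Livers of ICR mice, 8 weeks old per the labels, came from sham-operated, vehicle-injected males and females (sham, called intact in the sample titles) and from males and females hypophysectomised as adults (Hypox). Hypox mice of both sexes received a single GH injection, with livers taken at 30 min or at 90 min, or a pair of injections with 4 h between them and livers taken 30 min after the later one. RNA was pooled over 2 to 5 mice and hybridised in pairs to 22 Agilent arrays of 2 colours, with 11 comparisons on 2 arrays of opposite dye each. No group received thyroid hormone, so the comparisons bear on what GH alone restored, and the labels give no hormone concentrations. Pools recur between comparisons and share mice, so p-values measure the spread between arrays of pools and not between animals.

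Median spot signals ran from 294 to 376 (green channel) and from 415 to 522 (red channel), and 57.1 to 77.7% of spots were well above background. The correlation between the 2 arrays of a comparison over all tested genes ran from 0.00678 to 0.84 across the 11 comparisons. All 6 hepatocyte markers on the array were well above background in every group. In every comparison their median ratio was above 0 with the first group in the red channel and below 0 on the dye-swapped array. In male Hypox over sham it was -0.86 and 0.36. The ratios of these bright transcripts thus moved with the dye. The GH injections registered in established GH targets: Socs2, a feedback inhibitor, rose by 2.22 to 3.89 (log2) in all 6 GH comparisons, and Igf1, the hormone that mediates much of GH action, rose by 1.22 in males and 1.53 in females after 2 injections. Cish, another feedback inhibitor, rose by 3.11 to 4.17 at 90 min and after 2 injections in both sexes. Median ratios of 11 skeletal muscle markers departed from 0 by more than 1 on 10 of the 22 arrays. They were 1.89 and 2.72 in sham males over females, -2.18 and -2.72 in male Hypox over sham, -2.92 and -2.66 in female 2 GH over Hypox, and 2.68, 1.32 and 2.42 on 1 array each of male GH at 30 min, at 90 min and after 2 injections. They were also at 2.68 on 1 array of males over females 30 min after GH. Pancreatic acinar markers were at 3.65 on the male 2-injection array just named and at 0.60 on its partner, and the medians of hepatocyte, adipocyte, Kupffer cell, lymphocyte, endothelial, stellate cell and cholangiocyte markers stayed between -0.86 and 0.96. Within that range, the 6 lymphocyte markers moved with Hypox over sham, with medians of 0.77 and 0.62 in males and 0.27 and 0.38 in females and summed levels of 844 to 1091 in sham against 1419 to 2295 in Hypox. The medians of the 4 cholangiocyte markers were also above 0 on these arrays, at 0.43 and 0.16 in males and 0.42 and 0.44 in females. Their summed level went the other way in males, at 1905 to 2395 in sham against 1189 to 1415 in Hypox. In females the sums overlapped, at 1168 to 2456 in sham against 1345 to 2260 in Hypox. The 2 erythroid markers were at -1.19 and -0.45 in male Hypox over sham, at -0.07 and 0.31 in the female comparison, and at 1.03 on 1 array of sham males over females. Their summed level was lower in Hypox in both sexes. It was 66080 to 71500 in sham against 27710 to 46180 in Hypox males, and 65820 to 68980 against 29240 to 50800 in females. The part of these markers in the Hypox results was not tested. In female Hypox over sham the muscle medians were 0.00 on both arrays, so that comparison carried no shift of the muscle markers. In bulk liver RNA, fewer cells of a type and less RNA per cell cannot be told apart.

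Upstream sequence of 3 genes is shown because their transcripts behaved differently below: Dio1 fell the most, Serpina7 rose the most, and Klf9 was the 1 member that rose after GH. The sequences are the 250 bases before the RefSeq start on the GRCm38.p6 assembly, printed 5′ to 3′ on the strand of the gene. Dio1 lies on the minus strand at chr4:107307169-107307418, Serpina7 (the first of its 2 starts) on the minus strand at chrX:139085237-139085486, and Klf9 on the plus strand at chr19:23140976-23141225. Capitals mark the single match to any of the motifs searched, a TTCNNNGAA element of the kind bound by STAT5, the transcription factor that GH activates.
Dio1: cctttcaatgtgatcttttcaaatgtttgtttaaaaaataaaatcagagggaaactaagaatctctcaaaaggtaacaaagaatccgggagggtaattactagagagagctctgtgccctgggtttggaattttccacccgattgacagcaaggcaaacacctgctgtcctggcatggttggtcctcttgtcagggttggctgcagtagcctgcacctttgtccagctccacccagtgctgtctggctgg
Serpina7: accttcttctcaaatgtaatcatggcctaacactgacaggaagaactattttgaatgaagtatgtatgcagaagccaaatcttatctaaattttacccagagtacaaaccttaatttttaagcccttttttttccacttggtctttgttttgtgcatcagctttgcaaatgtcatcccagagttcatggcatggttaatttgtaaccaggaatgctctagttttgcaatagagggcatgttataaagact
Klf9: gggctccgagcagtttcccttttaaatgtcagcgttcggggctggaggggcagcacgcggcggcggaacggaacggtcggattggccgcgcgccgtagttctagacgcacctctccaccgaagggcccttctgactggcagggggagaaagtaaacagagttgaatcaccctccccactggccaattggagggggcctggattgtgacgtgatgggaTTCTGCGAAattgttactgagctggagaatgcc
Windows were on hand for 6 of the 7 genes, 8 windows in all. The thyroid hormone receptor core motif AGGTCA (searched on both strands) occurred in 0 of these 8 windows and in 14% of all 32851 RefSeq promoter windows of that length. The repeat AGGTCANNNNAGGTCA, which contains that motif, occurred in 0 of the 8 and in 0.0152% of all windows. TTCNNNGAA, which reads the same on both strands, occurred in 1 of the 8, in Klf9 at 33 to 25 bases before the start, and in 7.02% of all windows. These are letter matches within the 250 bases and not measured binding sites.

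The first question was how the genes stood in liver without a pituitary. Dio1, Thrsp, Gpd2 and Klf9 fell, and Serpina7 and Slc16a10 rose, in both sexes, while Ttr passed the test in females only. A gene was called when limma's adjusted p over all tested genes was under 0.05 and both arrays moved in 1 direction. The spread of a gene was estimated from all 22 arrays together, with 10 residual and 2.5 prior degrees of freedom. The SE given with n = 2 arrays is therefore not the spread of those 2 arrays. In males 6 of the 7 genes were called, against 37.4% of all tested genes, and in females 7 of 7, against 31.1%. Called in 1 direction in both sexes were 6 of 7, against 20.2% of all tested genes: 2 higher, against 10.2%, and 4 lower, against 10%.

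Of the hormone-activating side, Dio1 showed the deepest loss. The log2 ratios of Hypox over sham were -4.84 and -4.42 on the 2 male arrays and -4.71 and -4.28 on the 2 female arrays. All 4 arrays lay more than 4 log2 units below sham, and the ranges of the sexes overlapped. The fitted change was -4.63 ± 0.34 (SE, n = 2 arrays, adjusted p = 6.7e-07) in males, 24.7-fold lower, and -4.50 ± 0.34 (SE, n = 2 arrays, adjusted p = 2.0e-06) in females, 22.6-fold lower. The transcript of the enzyme that makes the active hormone in liver was thus measured at a small share of its sham level.

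Single-channel levels of Dio1 give the same direction on a different scale. On a log2 scale of intensity, sham males lay between 13.66 and 13.80 over 4 arrays and sham females between 12.59 and 13.83 over 4 arrays. Sham females read 13.79 and 13.83 on the arrays numbered 1 and 12.61 and 12.59 on those numbered 2, so arrays of different comparisons with the same number gave nearly the same level. Hypox males lay at 8.97 and 9.28 on the 2 arrays shared with sham, but between 6.42 and 6.78 on the other 8 arrays. Hypox females were likewise at 8.33 and 9.07 on the 2 arrays shared with sham and between 6.36 and 6.65 on the other 8. The Hypox level of this gene was therefore higher on the arrays that held the bright sham RNA in the other channel, in both sexes, and the direct ratio is smaller than the distance from sham to the other arrays. The reason was not tested. The direct ratio of about -4.5 is used throughout, and the spot was well above background in every Hypox channel.

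**Figure D1:**
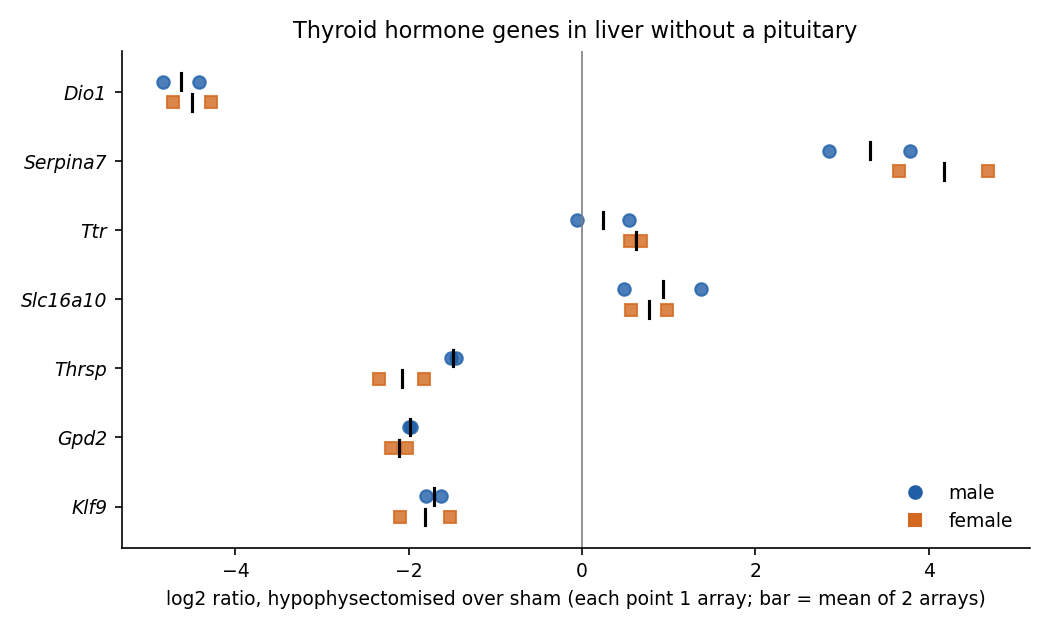
Log2 ratios of Hypox over sham for the 7 genes on each of the 2 male arrays (circles) and 2 female arrays (squares), with the mean of the 2 arrays as a bar. Dio1 lies between -4.84 and -4.28, Serpina7 between 2.85 and 4.69, and male Ttr is the 1 gene whose arrays fall on both sides of 0.

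Among the plasma carriers, Serpina7 moved most. The male arrays read 2.85 and 3.79 and the female arrays 3.66 and 4.69. Every array lay far above 0, and the spread between arrays of 1 sex was near 1 log2 unit. In both sexes the higher value came from the array with Hypox RNA in the red channel. The rise was 3.32 ± 0.18 (SE, n = 2 arrays, adjusted p = 4.8e-08) in males, 9.98-fold, and 4.18 ± 0.18 (SE, n = 2 arrays, adjusted p = 1.8e-08) in females, 18.1-fold. Thyroxine-binding globulin, the carrier with the highest affinity for thyroxine, was thus the 1 member with a large rise. Its sham level differed between arrays with different partner RNA. Sham females read 12.09 and 12.79 on arrays shared with Hypox and 10.97 and 11.23 on arrays shared with sham males. Sham males read 12.10 and 12.90 on arrays shared with Hypox against 11.70 and 12.15, ranges that overlapped. The female sets also lay on different slides and scan days, so partner, slide and day cannot be told apart there.

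Transthyretin, the other liver-made carrier, differed little. Its male arrays read 0.55 and -0.06, on both sides of 0, and its female arrays 0.69 and 0.55. The male change was 0.25 ± 0.20 (SE, n = 2 arrays, adjusted p = 0.36), and the female change was 0.62 ± 0.20 (SE, n = 2 arrays, adjusted p = 0.03), 1.54-fold higher. The female call was lost without either replicate (0.58 and 0.66, adjusted p = 0.20 and 0.18) and with median centring (0.73, adjusted p = 0.13). The change did not pass the test of a difference between the sexes (-0.37, 95% interval -0.98 to 0.23, adjusted p = 0.49).

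Slc16a10, the transporter, rose modestly. The male arrays read 1.38 and 0.48 and the female arrays 0.56 and 0.98, all above 0. The change was 0.93 ± 0.23 (SE, n = 2 arrays, adjusted p = 0.0066) in males and 0.77 ± 0.23 (SE, n = 2 arrays, adjusted p = 0.022) in females. Its dimmer probe rose by less, 0.35 in males (adjusted p = 0.039) and 0.42 in females (adjusted p = 0.019). The male call was lost without replicate 1 (0.45, adjusted p = 0.32) and with the arrays of the comparison alone (adjusted p = 0.053). The female call was lost without either replicate (1.02 and 0.52, adjusted p = 0.054 and 0.36) and with median centring (0.87, adjusted p = 0.073).

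The 3 response genes fell together, each by more than 1 log2 unit in both sexes. Thrsp read -1.46 and -1.51 in males and -1.82 and -2.34 in females, so the male and female arrays did not overlap. The fall was -1.48 ± 0.23 (SE, n = 2 arrays, adjusted p = 0.00023) in males and -2.08 ± 0.23 (SE, n = 2 arrays, adjusted p = 3.2e-05) in females, and the difference of 0.60 between the sexes had an adjusted p of 0.31. Gpd2, which shuttles cytosolic reducing equivalents to the respiratory chain, was the most even of the genes. Its 4 arrays read -1.97 and -2.00 in males and -2.02 and -2.20 in females, and the fall was -1.99 ± 0.11 (SE, n = 2 arrays, adjusted p = 5.3e-08) in males and -2.11 ± 0.11 (SE, n = 2 arrays, adjusted p = 7.1e-08) in females. Gpd2 thus stood 3.96-fold lower in males and 4.32-fold lower in females. Klf9 read -1.80 and -1.62 in males and -2.10 and -1.53 in females, with overlapping arrays. The fall of Klf9 was -1.71 ± 0.18 (SE, n = 2 arrays, adjusted p = 1.1e-05) in males and -1.82 ± 0.18 (SE, n = 2 arrays, adjusted p = 1.4e-05) in females, and its dimmer probe fell by 1.31 and 1.30.

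The size of the Hypox change passed the test of a difference between the sexes for 0 of the 7 genes (limma, adjusted p under 0.05), against 6.74% of all tested genes, and 1 gene had an unadjusted p under 0.05. That gene was Serpina7, whose rise was smaller in males by 0.86 (95% interval -1.41 to -0.31, adjusted p = 0.065). The muscle markers moved with the male comparison, and in the female one they were at 0.00. On the 2 female arrays other marker medians were above 0. They were 0.27 and 0.38 for lymphocytes, 0.42 and 0.44 for cholangiocytes and 0.12 and 0.83 for adipocytes. The part of these markers in the female values was not tested. In the male comparison the sham channel held the muscle signal. The summed level of the 11 muscle markers was 11880 to 39560 in sham males and 1448 to 7489 in Hypox males, and its part in the male values was not tested.

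The second question was which genes GH restored. Of the 7 genes, 2 were called in at least 1 of the 6 comparisons of GH over Hypox, against 28.4% of all tested genes, the same share. Those were Klf9, which rose in males at 90 min, and Thrsp, which fell further in females at 90 min. By comparison, 30 min after 1 injection called 2.5% of tested genes in males and 0.0191% in females, 90 min called 4.98% and 3.17%, and 2 injections called 19.3% and 8.43%.

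Dio1 stayed at its Hypox level on 10 of the 12 GH arrays, with ratios of GH over Hypox between -0.18 and 0.21. The exceptions were 1 male array at 90 min, at 1.93, and 1 male array after 2 injections, at 0.62. Their partner arrays read -0.08 and -0.06, so the 2 arrays of each comparison did not go the same way. The fitted ratio at 90 min in males was 0.92 ± 0.34 (SE, n = 2 arrays, adjusted p = 0.16), and without the partner array, which carried muscle markers at 1.32, it was 1.92 (adjusted p = 0.028). The male array after 2 injections that read 0.62 carried muscle markers at 2.42 and pancreatic acinar markers at 3.65. In females the ratios were 0.07, -0.03 and -0.08 at 30 min, 90 min and after 2 injections, each with an SE of 0.34 and none called. After 2 injections in females Dio1 was well above background on 1 of 2 arrays. The array that was not read 6.34 on the log2 scale of levels. Hypox liver of both sexes read 6.36 to 6.78 on the arrays without sham. Ratios of GH over Hypox for Dio1 thus rest largely on weak signal in both sexes, and a small response could be missed.

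Serpina7 stayed high. In males GH over Hypox read 0.04 and -0.10 at 30 min, -0.23 and 0.52 at 90 min, and 0.46 and 0.53 after 2 injections. The last pair lay above 0 on both arrays, away from sham, at 0.49 ± 0.18 (SE, n = 2 arrays, adjusted p = 0.076). In females the fitted ratios were -0.20, -0.27 and -0.20 in the same order, with adjusted p of 0.90, 0.58 and 0.59. Ttr read between -0.43 and 0.30 on the 6 male arrays and between -0.49 and 0.41 on the 6 female arrays, and no GH comparison called it. Slc16a10 read -0.74 and -0.41 in males at 30 min, a change of -0.57 ± 0.23 toward sham (SE, n = 2 arrays, adjusted p = 0.20), and between -0.25 and 0.46 on the other 10 GH arrays. The carriers and the transporter thus gave no call in any of the 6 comparisons.

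**Figure D2:**
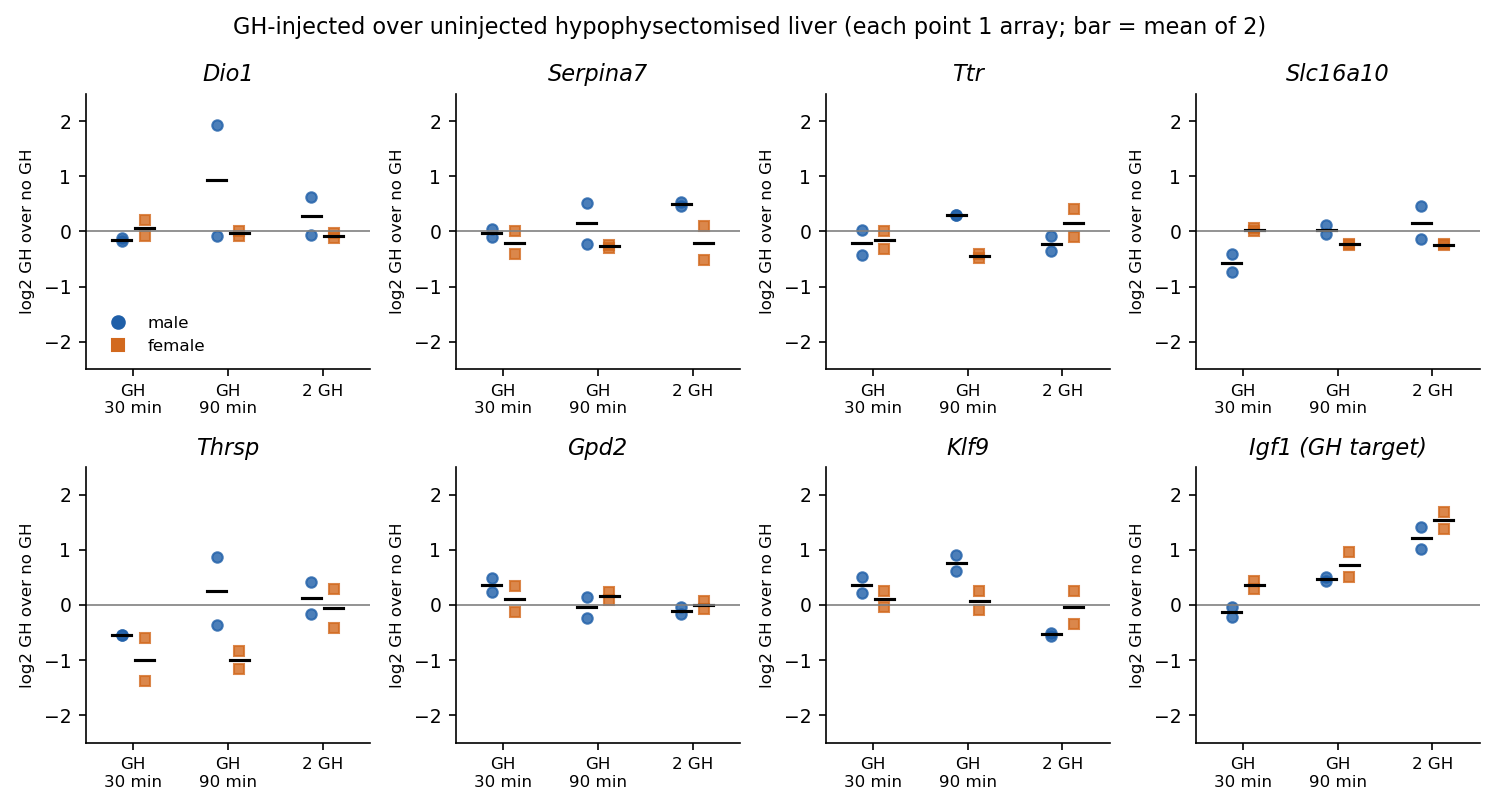
Log2 ratios of GH-injected over uninjected Hypox liver for the 7 genes and for the GH target Igf1, by time, with each point 1 array and the bar the mean of 2 (circles male, squares female). Igf1 reaches 1.22 in males and 1.53 in females after 2 injections, while the means of the 7 genes after 2 injections lie between -0.54 and 0.49.

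Klf9 was the 1 member with a called rise after GH. In males its arrays read 0.21 and 0.50 at 30 min, 0.62 and 0.91 at 90 min, and -0.56 and -0.51 after 2 injections. All 4 arrays with 1 injection lay above 0 and both arrays with 2 injections below it. The rise at 90 min was 0.77 ± 0.18 (SE, n = 2 arrays, adjusted p = 0.026), 1.70-fold, and the dimmer probe rose by 0.64 (adjusted p = 0.0055). After 2 injections the ratio was -0.54 ± 0.18 (SE, n = 2 arrays, adjusted p = 0.051), a value that just missed the threshold and moved to 0.036 to 0.05 under 5 alternatives. The difference between the male values after 2 injections and at 90 min was -1.30 ± 0.25 (SE, adjusted p = 0.0087), a test chosen after the values were seen, against 7.6% of all tested genes called in that contrast, and -0.96 (adjusted p = 0.0037) by the dimmer probe. In females that difference was -0.12 (adjusted p = 0.88), where 2.05% of tested genes were called. The rise at 90 min lost its call without either replicate (0.87 and 0.66, adjusted p = 0.20 and 0.32), with median centring (0.81, adjusted p = 0.49), in the deposited value table (0.76, adjusted p = 0.05) and with the 2 arrays of the comparison alone (0.77, adjusted p = 0.054). In the latter 2 the adjusted p was at the threshold. In females Klf9 read between -0.34 and 0.26 on all 6 GH arrays, with fitted ratios of 0.11, 0.08 and -0.04. The female ratio at 90 min reached 0.74 under an alternative, with 0 calls over the 14. Over both sexes the change at 90 min was 0.42, not called in the main fit but called under 3 of the 14 alternatives. The dimmer probe read 0.35 over both sexes at 90 min (limma adjusted p = 0.016) and 0.06 in females (adjusted p = 0.91). The male and female responses at 90 min differed by 0.69 (95% interval 0.15 to 1.23, adjusted p = 0.37), which did not pass the test, a contrast in which 0.00764% of all tested genes were called. The difference in GH response between the sexes passed limma's test for 0 of the 7 genes at 30 min (0 with an unadjusted p under 0.05, against 0.00764% of tested genes called), at 90 min (3, among them Thrsp at 1.24, adjusted p = 0.22) and after 2 injections (1, against 1.97%).

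Thrsp went further down soon after GH. In females the arrays read -1.39 and -0.60 at 30 min, -1.15 and -0.83 at 90 min, and -0.42 and 0.30 after 2 injections. The 4 arrays with 1 injection were all below 0, and the arrays with 2 injections lay on both sides of it. The change at 90 min was -0.99 ± 0.23 (SE, n = 2 arrays, adjusted p = 0.034), 1.99-fold lower, and that at 30 min was of the same size but not called (-0.99 ± 0.23, adjusted p = 0.24). In males Thrsp read -0.55 and -0.55 at 30 min, -0.37 and 0.87 at 90 min and -0.17 and 0.42 after 2 injections, with no call. Over both sexes the change at 30 min was -0.77 ± 0.16 (SE, adjusted p = 0.049), where 0.737% of all tested genes were called. At 90 min and after 2 injections over both sexes, limma called 0 of the 7 (2 and 1 with an unadjusted p under 0.05), against 8.49% and 22.1%, and 27.1% of all tested genes were called in at least 1 of these 3 contrasts. That call was lost under 12 of the 14 alternatives (adjusted p = 0.051 to 0.37), and the female call at 90 min under 5 (adjusted p = 0.11 to 0.43), with a ratio of -0.33 under median centring, where the median of all tested genes in that comparison was 0.24. Gpd2 gave no call after GH. Its GH over Hypox values were 0.36, -0.04 and -0.10 in males and 0.10, 0.16 and 0.00 in females, each with an SE of 0.11 (limma adjusted p = 0.098 to 0.99). The largest, in males at 30 min, had both arrays above 0 (0.48 and 0.23).

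The state after GH was then set against sham, by adding the fitted ratio of GH over Hypox to that of Hypox over sham. After 2 injections 5 of the 7 genes differed from sham in both sexes and in 1 direction, against 9.87% of all tested genes: Dio1, Thrsp, Gpd2 and Klf9 below sham, against 4.66%, and Serpina7 above it, against 5.2%. In males alone the count was 6 of 7, against 21.9%, and in females 5 of 7, against 20%. At 30 min the count was 5 in males, against 21.2%, and 5 in females, against 16.8%. At 90 min it was 6 in males, against 23.8%, and 5 in females, against 16.2%. The gene that varied was Slc16a10, which in males was at 0.36 (95% interval -0.35 to 1.06, adjusted p = 0.49) at 30 min and at 0.96 (adjusted p = 0.049) at 90 min. Its dimmer probe read 0.33 in males at 90 min (limma adjusted p = 0.18). In females at 30 min, where the brighter probe gave no call, the dimmer one read 0.55 (adjusted p = 0.045). These contrasts contain the Hypox over sham arrays, so they are not a second observation of the loss.

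Dio1 was 20.4-fold below sham in males (-4.35, 95% interval -5.40 to -3.30, adjusted p = 6.9e-05) and 23.9-fold below in females (-4.58, 95% interval -5.63 to -3.52, adjusted p = 9.9e-05). Serpina7 was 14.1-fold above sham in males (3.81, 95% interval 3.26 to 4.36) and 15.7-fold above in females (3.97, 95% interval 3.42 to 4.52), with adjusted p of 1.2e-06 and 2.1e-06. Both intervals lay well above 0, so the carrier was still far above sham in both sexes. Gpd2 was at -2.09 (95% interval -2.42 to -1.76) in males and -2.11 (95% interval -2.44 to -1.77) in females, with adjusted p of 2.8e-06 and 5.2e-06. Klf9 was at -2.25 (95% interval -2.79 to -1.71) in males and -1.86 (95% interval -2.40 to -1.32) in females, with adjusted p of 6.5e-05 and 0.00044. Even at 90 min, when male Klf9 stood highest, it was still 1.93-fold below sham (-0.95, 95% interval -1.49 to -0.41, adjusted p = 0.016). Thrsp was at -1.36 (95% interval -2.05 to -0.67, adjusted p = 0.0088) in males and -2.14 (95% interval -2.84 to -1.45, adjusted p = 0.00084) in females.

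Slc16a10 and Ttr gave a less even picture. Slc16a10 was above sham in males after 2 injections (1.09, 95% interval 0.39 to 1.80, adjusted p = 0.03) and not called in females (0.52, 95% interval -0.18 to 1.23, adjusted p = 0.29). The male value fell to 0.21 without replicate 1 and to 0.62 with the mean of both probes (adjusted p = 0.074). The dimmer probe alone read 0.15 in males (limma adjusted p = 0.58) and 0.11 in females (adjusted p = 0.70). Ttr was at 0.02 (95% interval -0.58 to 0.63) in males and at 0.77 (95% interval 0.17 to 1.38, adjusted p = 0.069) in females. For these genes, neither a return to sham nor a lasting difference was shown in females. Thrsp in males lost its call without replicate 1 (-1.55, adjusted p = 0.10), without replicate 2 (-1.17, adjusted p = 0.17) and with median centring (-1.14, adjusted p = 0.12), in females without replicate 2 (-1.76, adjusted p = 0.052), and Klf9 in females with median centring (-1.66, adjusted p = 0.056). Leaving out the male 2-injection array that carried muscle and pancreatic markers left the same 5 genes called. In female 2 GH over Hypox the muscle medians were -2.92 and -2.66, with a summed level of 6860 to 8292 after GH and up to 68990 in female Hypox, and their part in these values was not tested.

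**Figure D3:**
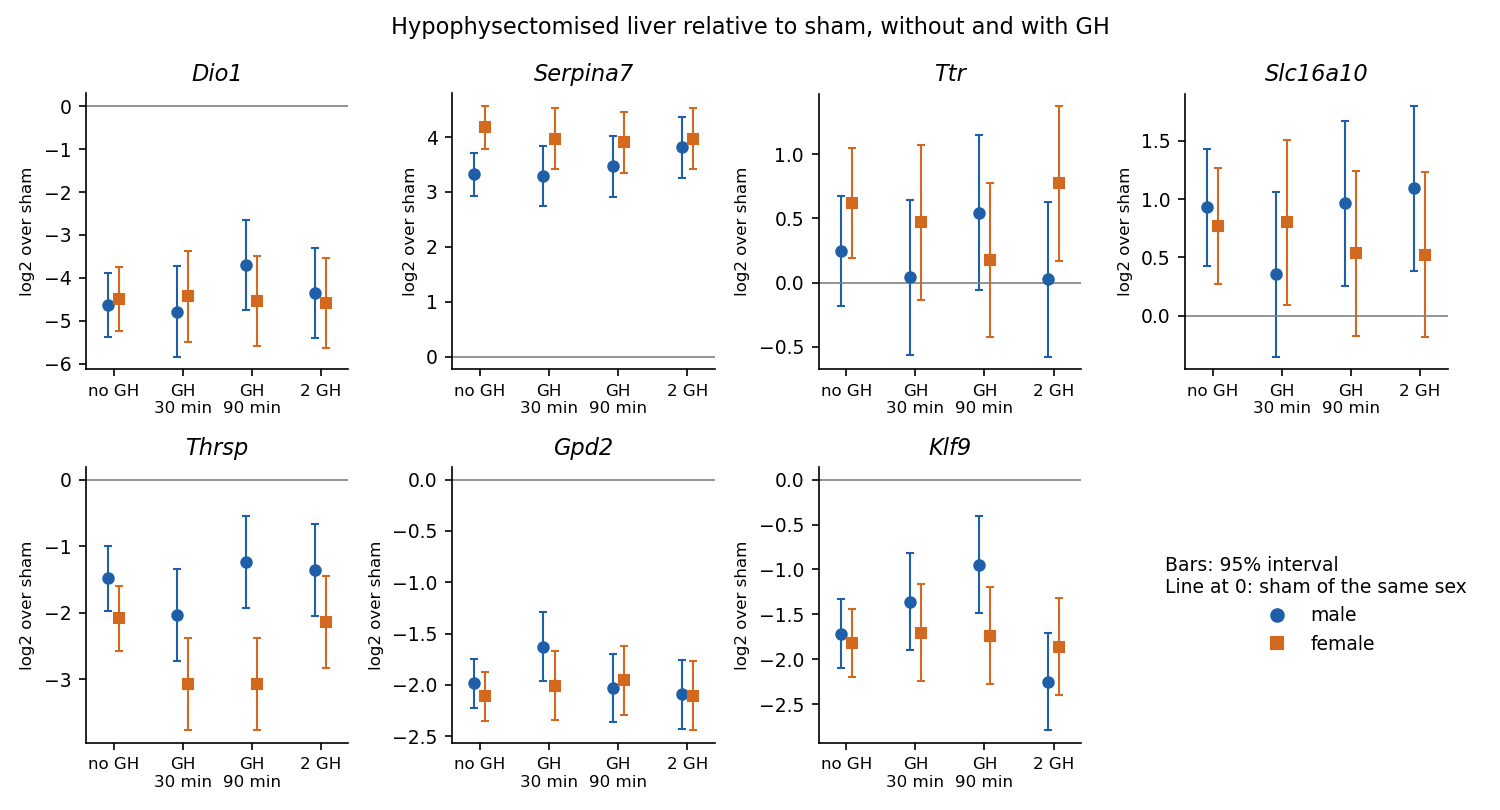
Fitted log2 ratios to sham of the same sex, with 95% intervals, for Hypox liver without GH, 30 min and 90 min after 1 GH injection and after 2 injections (circles male, squares female; line at 0 is sham). After 2 injections the intervals of Dio1, Serpina7, Thrsp, Gpd2 and Klf9 leave out 0 in both sexes, while those of Ttr in males and Slc16a10 in females include it.

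The third question was whether the genes differed between the sexes. In at least 1 of the 3 male over female comparisons 2 of the 7 genes were called, Serpina7 and Thrsp, against 10.1% of all tested genes. Serpina7, an X-linked gene, was higher in sham males than sham females, with arrays at 0.91 and 0.73 and a ratio of 0.82 ± 0.18 (SE, n = 2 arrays, adjusted p = 0.011), where 8.77% of all tested genes were called. In Hypox livers the direct arrays gave the opposite order, at -0.68 and -1.23. The ratio was -0.96 ± 0.18 (SE, n = 2 arrays, limma adjusted p = 0.024), where 1.63% of tested genes were called. After GH for 30 min the arrays read -0.46 and -0.93 (-0.70 ± 0.18, adjusted p = 0.12). So 4 of 4 arrays of Hypox liver, with or without GH, were below 0 and both sham arrays were above it. The Hypox value did not close the loop of comparisons: it was lower by 0.92 (95% interval -1.70 to -0.15, unadjusted p = 0.024, adjusted p = 1) than the value obtained by way of the sham groups. That gap was nearly as large as the Hypox value itself, so the route by way of the sham groups gave almost no sex difference in Hypox. Both Serpina7 calls between the sexes were lost without either replicate (0.96 and 0.68 in sham, -1.02 and -0.90 in Hypox). With median centring and without the dye term both were also lost (limma adjusted p = 0.19 and 0.084 in sham, 0.42 and 0.11 in Hypox). The Hypox call was lost as well in the deposited table (adjusted p = 0.11) and with the arrays of the comparison alone (adjusted p = 0.45).

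Thrsp was not called between sham males and females (arrays 0.32 and -0.24, ratio 0.04 ± 0.23, SE, adjusted p = 0.96). In Hypox livers it read 0.75 and 0.62 in males over females (0.69 ± 0.23, adjusted p = 0.15), and 30 min after GH 1.59 and 0.79 (1.19 ± 0.23, SE, n = 2 arrays, adjusted p = 0.04), where 0.504% of tested genes were called. All 4 arrays of Hypox liver were above 0. The direct value at 30 min closed the loop within 0.06 of the value by way of the Hypox groups. Muscle markers were at 2.68 on the array that read 1.59 and near 0 on the other, and without the array at 1.59 the ratio was 0.98. The 2 arrays of this comparison correlated at 0.00678 over all tested genes, the lowest of the 11 comparisons. The Thrsp call held under only 6 of the 14 alternatives. It was lost, among others, in the deposited table (limma adjusted p = 0.077) and without the dye term (adjusted p = 0.12). Dio1 was not called between the sexes in any of the 3 comparisons: sham males over females read -0.03 and 1.07 (0.52 ± 0.34, adjusted p = 0.44), with sham females near 12.6 on 1 of these arrays and near 13.8 on the other. Ttr, Slc16a10, Gpd2 and Klf9 were not called either, with ratios between -0.21 and 0.62.

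Single-channel levels give each group's own values from the same arrays. They separated sham from Hypox in the direction of the direct ratios for the 6 genes called in both sexes. The same channels gave the ratios by which these 6 were called, so this is not a second observation. The share of all tested genes separated in this way was not computed. Small differences between Hypox groups could order otherwise: the mean Serpina7 level was 16.56 in females after 2 injections and 16.43 in female Hypox, where the direct ratio was -0.20. For Dio1 the sham groups overlapped each other at the top and did not overlap any other group, and 8 groups followed with medians between 6.33 and 7.55. For Serpina7 the order began with females after 2 injections (16.39 to 16.72 over 2 arrays) and female Hypox (16.00 to 16.90 over 10 arrays), which overlapped, and ended with sham males (11.70 to 12.90) and sham females (10.97 to 12.79). Klf9 was highest in sham males (13.22 to 13.35 over 4 arrays), then sham females (12.98 to 13.15 over 4 arrays) and then males at 90 min (12.11 to 12.16 over 2 arrays), with no overlap between these neighbours. Male Hypox liver without GH lay at 11.19 to 11.70 over 10 arrays for Klf9, and male liver after 2 injections at 10.63 to 10.85 over 2 arrays. Thrsp was lowest in females 90 min after GH (10.90 to 11.21 over 2 arrays), with no overlap with the next group, females 30 min after GH (11.36 to 12.28 over 4 arrays). Gpd2 lay between 11.26 and 11.45 in the sham groups and between 8.77 and 9.78 in all others. Slc16a10 lay between 9.23 and 9.77 in the sham groups and between 10.07 and 11.05 in all others. Ttr had no separate group, with all levels between 15.03 and 15.93.

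**Figure D4:**
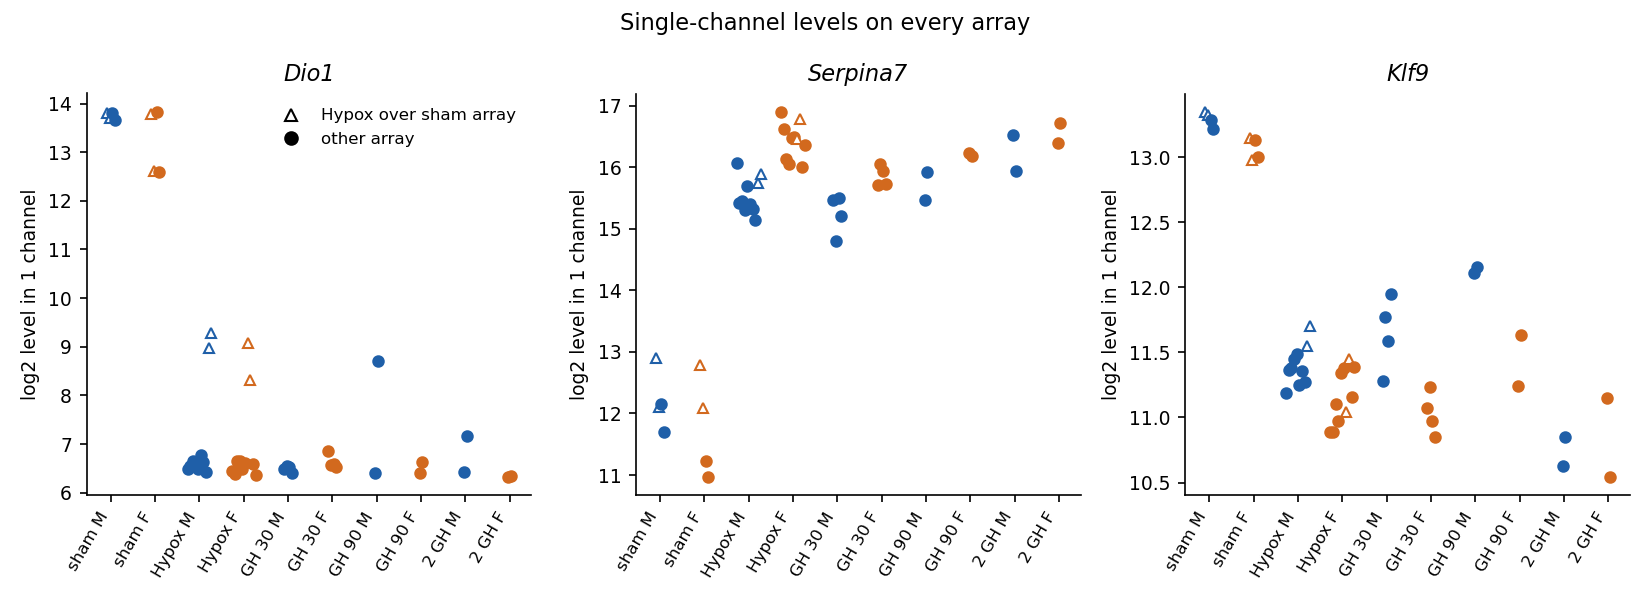
Log2 single-channel levels of Dio1, Serpina7 and Klf9 in every group (blue male, orange female), with open triangles for the arrays of Hypox over sham and filled circles for the others. Hypox Dio1 lies at 8.33 to 9.28 on the arrays shared with sham and at 6.36 to 6.78 on the others, and male Klf9 at 90 min (12.11 to 12.16) stands apart from male Hypox (11.19 to 11.70).

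Other genes of the pathway were read from 3 lists: receptors and coregulators, hormone handling, and response genes, 47 tested genes in all. In both sexes and in 1 direction 12 of the 47 (25.5%) were called in Hypox over sham, against 20.2% of all tested genes, a share near the background. The median change was -0.15 in males and -0.12 in females for receptors and coregulators, 0.35 and 0.04 for hormone handling, and -0.09 and -0.48 for response genes, with medians of 0.01 and 0.00 over all tested genes.

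Among receptors and coregulators 4 of 14 were called in both sexes. Thra, the alpha receptor, rose by 0.69 in males (adjusted p = 1.3e-05) and 0.28 in females (adjusted p = 0.013), while Thrb, the main receptor of hepatocytes, read -0.35 and -0.19 and was not called. The retinoid X receptor Rxrb fell by 0.30 and 0.38, the corepressor Ncor1 by 0.58 and 0.76, and its partner Tbl1xr1 by 0.44 and 0.60, in males and females. Thra moved back after GH in both sexes: it fell after 2 injections by 0.61 in males (adjusted p = 0.00012) and 0.58 in females (adjusted p = 0.0011), to 0.08 (adjusted p = 0.65) and -0.31 (adjusted p = 0.057) relative to sham. Ncor1, lower in Hypox, rose by 0.50 in males at 30 min, where Ncoa1, a coactivator, rose by 0.47. Ncoa1 fell by 0.44 in females after 2 injections.

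Among hormone handling genes 5 of 16 were called in both sexes. Dio3, the deiodinase that inactivates the hormone, rose by 0.71 in males and 0.48 in females, and the organic anion transporter Slco1a4 rose by 3.58 and 1.56. The organic anion transporter Slco1a1 fell by 4.47 and 2.93, and the bile acid transporter Slc10a1 by 1.52 and 1.29. After 2 injections in males Slco1a4 fell by 0.76, Dio3 by 0.47, the iodotyrosine deiodinase Iyd by 0.40, and the sulfotransferases Sult1a1 and Sult1b1 by 0.41 and 0.45, while Slc10a1 rose by 0.68. In females after 2 injections Dio2, another activating deiodinase, fell by 0.30 and was the 1 called gene of this list.

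Among response genes 3 of 17 were called in both sexes, all lower. In males and females, malic enzyme Me1, a classical thyroid hormone target, read -1.18 and -0.96, Angptl4, a lipoprotein lipase inhibitor, -3.08 and -2.40, and cytochrome c, Cycs, -1.24 and -0.55. After GH the lipogenic enzyme Fasn fell by 1.03 in females at 90 min, the comparison and the direction in which Thrsp was called. In males Por, the reductase of microsomal P450 enzymes, and Acaca rose by 0.43 and 0.46 at 90 min. After 2 injections in males Cycs rose by 0.58, and Fgf21, Cpt1a and Acly, genes of the fasting hormone, fatty acid oxidation and citrate cleavage, fell by 0.91, 0.51 and 0.42. Of the 12 genes called in Hypox, 7 still differed from sham in both sexes after 2 injections, among them Slco1a4, Ncor1, Tbl1xr1, Slco1a1, Me1 and Angptl4. Of all tested genes 9.87% differed from sham in this way. The 12 were chosen on the same Hypox over sham arrays that enter this contrast, which favours such a carry-over. The share among all genes called in Hypox was not computed, so the count is a description. Counted by comparison, GH called 2 of the 47 higher and 0 lower in males at 30 min, 2 and 0 at 90 min and 3 and 9 after 2 injections, and in females 0 and 0, 0 and 1, and 0 and 3. In either direction the shares of all tested genes were 2.5%, 4.98% and 19.3% in males and 0.0191%, 3.17% and 8.43% in females. In at least 1 of the 6 comparisons 18 of the 47 were called, against 28.4%.

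**Figure D5:**
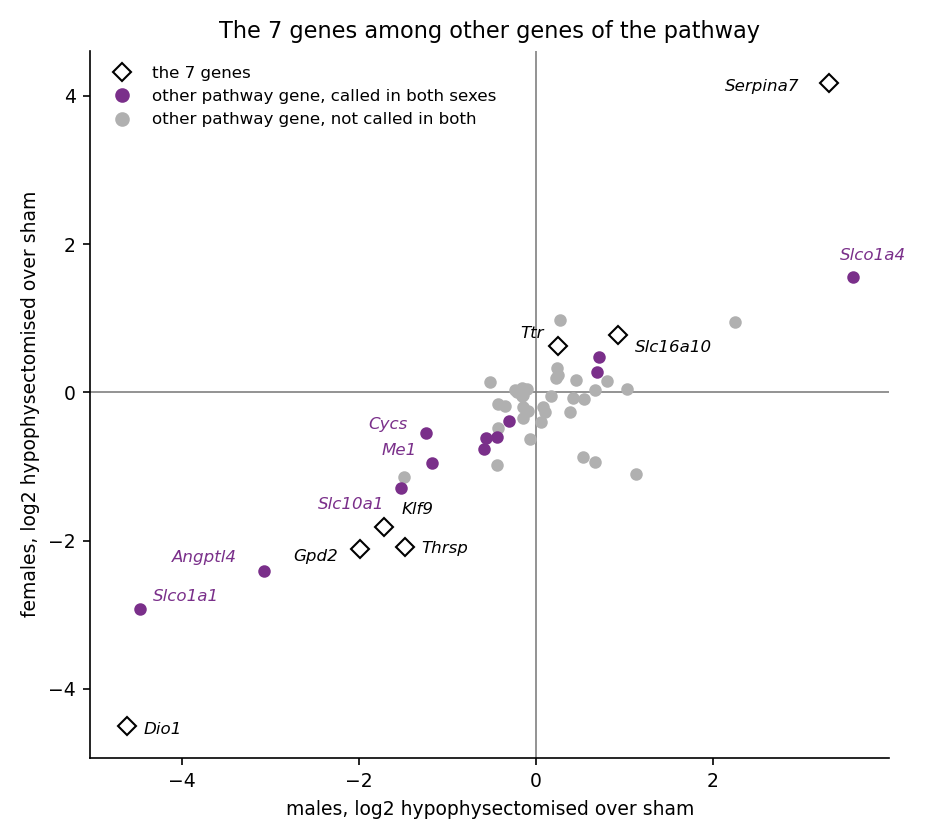
Log2 ratios of Hypox over sham in males (horizontal) and females (vertical) for the 7 genes (diamonds) and 47 other genes of the pathway, purple where called in both sexes in 1 direction (12 genes) and grey otherwise. Dio1 (-4.63, -4.50) and Serpina7 (3.32, 4.18) lie at the ends of the diagonal. Slco1a1 (-4.47, -2.93), Slco1a4 (3.58, 1.56) and Angptl4 are among the most distant of the other genes.

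Dio1 encodes a selenoprotein, so other selenoprotein genes were read beside it. Of 10 tested, 0 rose and 3 fell in male Hypox over sham, against 37.4% of all tested genes, and 1 rose and 2 fell in females, against 31.1%, with medians of -0.08 and -0.01. Gpx1, the cytosolic glutathione peroxidase, fell by 1.23 in males (arrays -1.89 and -0.57) and by 1.44 in females (arrays -1.99 and -0.88). The loss of Dio1 was far from the median of this list.

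The genes nearest to each member over the 22 arrays were found by Pearson correlation of log2 ratios among 12044 genes well above background throughout. The arrays share pools, and the 4 arrays of Hypox over sham carry the widest ratios, so these values are a description. Dio1 lay closest to Sult5a1 (0.97), Serpina3c (0.97) and Lpin1 (0.95), and Gpd2 to Sult5a1 (0.98), D230025D16Rik (0.97) and Acot8 (0.96). Sult5a1 is thus nearest to both, and its own ratio was -3.21 in male Hypox over sham. Klf9 lay closest to Prodh (0.94), Lpin1 (0.91) and D230025D16Rik (0.91), so that Dio1, Gpd2 and Klf9 had neighbours in common. Serpina7 lay closest to Gprc5a (0.94), Plekhh2 (0.94) and Ptprs (0.93). The nearest genes of Slc16a10 were Fhl2 (0.89), Lsm5 (0.88) and Mcam (0.88), those of Thrsp were Tor1a (0.87), Herpud1 (0.83) and Nat8f2 (0.83), and those of Ttr were Adcy9 (0.84), Stard10 (0.81) and Klk1b4 (0.78), the loosest of the 7.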

How the data were processed

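Per the file headers, each deposited array file gives the mean and background intensity of every spot in both channels, a log10 ratio and flags, written by Agilent Feature Extraction 9.5.1.1. The deposited table of log2 ratios equalled the scanner software's ratios within 0.005, in 6 of 22 columns under the same replicate number and in 16 under the other number of the same comparison, so the scanner numbering was used. Its direction was set from the dyes in the labels.

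Intensities were background corrected with normexp (offset 50), then loess was applied array by array in limma 3.58.1 (R 4.3.3), with control spots at weight 0. The dyes in the labels set the direction of every ratio, first group over second. Probes were named through RefSeq accessions (22072 of 41174 matched a symbol), the brightest probe stood for a gene, and 26191 genes well above background on both arrays of a comparison were tested. The model held 11 comparison coefficients and a dye term, with Benjamini-Hochberg adjustment within each comparison over all tested genes, and it was tested on simulated data. Contrasts were called on the adjusted p alone. Single-channel levels are after loess and Aquantile normalization between arrays.

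Named are all 7 genes, every pathway gene called in Hypox over sham in both sexes or in a GH comparison, the 3 nearest genes of each member, and Cish, Socs2 and Igf1, except that some pathway genes in the counts are not reported here by name; Thrb, Gpx1 and the muscle-marked arrays were singled out after their values were seen. The members and lists were chosen with earlier results of these data known. The design text sets females after 2 injections against male Hypox, whereas the labels say female Hypox. On those arrays 4 Y-linked genes read between -0.14 and 0.20, against 2.52 to 7.31 between the sexes, and the labels were followed. The number of arrays limits the precision. The correlation of deviations between same-numbered arrays was over 0.1 in 20 of 55 pairs of comparisons (-0.359 to 0.871, median -0.00115), not in all, so no block was used. Sham levels of some members followed the number across comparisons, so a number may mark a recurring pool there, and arrays that share a pool are not independent. Alternatives were median centring, no background correction, the deposited table, no dye term, a loop model, the arrays of a comparison alone, no filter on dim probes, the mean of all probes, a slide block, a replicate block, leaving out replicates and a threshold of 0.01.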

Additional observations from a re-analysis of the deposited data

Results flagged for a closer look

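The change of Klf9 after GH in males differed between 2 injections and 90 min after 1 injection by -1.30 (log2, SE 0.25, limma adjusted p = 0.0087), a test of the difference between these responses. The 90 min arrays read 0.62 and 0.91 and the 2-injection arrays -0.56 and -0.51. The test was chosen after the values were seen. Over 14 alternatives the difference lay between -1.42 and -1.13 and was called under 9. In females the same difference was -0.12 (SE 0.25, adjusted p = 0.88).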

How the results depend on the processing

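The 6 genes called in Hypox over sham in both sexes became 5 under 5 alternatives and the 5 genes still different from sham after 2 GH injections became 3 under median centring (Dio1, Serpina7 and Gpd2) and 4 without either replicate. Calls after GH and between the sexes rested on few arrays. With median centring 0 genes were called after GH and 0 between the sexes, and 5 pathway genes in place of 12. The deposited table gave 1 after GH, 1 between the sexes and 0 over both sexes. Without background correction 1 was called between the sexes and 0 over both sexes, and without the dye term 1 after GH, 0 between the sexes and 0 over both sexes. The loop model, which fits 1 level per group, gave 2 genes whose Hypox change differed between the sexes (Serpina7 and Thrsp) in place of 0, and 2 over both sexes in place of 1. The arrays of the comparison alone gave 0 after GH, 1 between the sexes and 0 over both sexes, and a threshold of 0.01 gave 0, 0 and 0. Without the filter on dim probes and with slide as a random block (correlation 0.0975), 0 genes were called over both sexes. With the replicate block, 0 genes were called over both sexes and no other count moved by more than 1.5 times, while male Klf9 after 2 injections gained a call (-0.54, adjusted p = 0.046). The deviations of same-numbered arrays correlated over 0.1 in 20 of 55 pairs of comparisons, so the labels and the data did not settle a pairing. Leaving out replicates gave 0 to 2 genes after GH, 0 to 2 between the sexes, 0 to 2 over both sexes and 7 to 13 pathway genes, which includes the 2 alternatives without an array that carried muscle markers, chosen after seeing the data. Among called ratios under the alternatives, 371 values kept direction and call, 63 kept direction and lost the call, and 0 reversed. Of 1428 values of uncalled ratios, 16 passed the threshold and 81 changed sign while uncalled in both. Weak signal over background limits Dio1 in Hypox and GH-treated liver of both sexes, and 2 arrays a comparison limit every call.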
